A study of Mus musculus with 12 samples.

Results

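Oxaliplatin (OXP) was given to CT26 cells that were already under short-term starvation (STS), and the 3 STS+OXP arrays were compared with the 3 STS arrays, 6 of the 12 Affymetrix mouse expression arrays of the series. The samples were chosen by their labels alone, and all 17097 genes represented on the arrays by a probe set with 1 gene symbol were tested, without a filter on signal. CT26 is a mouse colon carcinoma cell line grown in culture. STS meant 48 hours at 0.5 g/L glucose with 1% serum, and STS+OXP cells had the same medium with 10 µM OXP, which the labels place 24 hours after the start of STS. The figure legends of the study name another dose and, in 1 place, another time, so dose and time are given here as the labels state them. The remaining 6 arrays are 3 control (CTR) arrays, from cells in 1.0 g/L glucose and 10% serum, and 3 OXP arrays, from cells in that full medium with OXP. Whether replicates were separate cultures is stated nowhere, so the p-values measure only the spread between these arrays, which may be technical. The comparison asks which genes the drug moved in cells that had already been starved of glucose and serum.

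Oxaliplatin is a platinum compound that binds DNA and forms adducts and crosslinks that block replication and transcription. Damaged DNA activates the kinases ATM and ATR and stabilises the transcription factor p53, which switches on genes for growth arrest, repair and death. One of them, Cdkn1a (p21), inhibits cyclin-dependent kinases, and in arrested cells the genes that E2F factors and the MuvB complexes drive in S phase and mitosis are silenced. Starvation itself lowers the flow through growth signalling and raises lysosomal and catabolic genes.

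The values are log2 signals made by RMA, so 1 unit is a factor of 2, and RMA equalises the distribution of signals between arrays, so a change in the total RNA of a cell cannot be seen. In a bulk sample, fewer cells of a kind and less RNA per cell cannot be told apart. The root mean square difference over genes was 0.13 to 0.18 between arrays of 1 group and 0.41 to 0.44 between STS and STS+OXP arrays. A signal no higher than the highest of 22 negative control probe sets was treated as background, and that level lay between 3.42 and 3.72 on the 6 arrays. The control probe set at the 3′ end of the actin mRNA exceeded that at the 5′ end by 0.86 to 0.87 in the STS arrays and by 1.00 to 1.33 in the STS+OXP arrays, and for Gapdh the differences were 0.01 to 0.04 and 0.11 to 0.28. This measure of RNA integrity moved with the drug, and its part in the results was not tested. Among the arrays in full medium, the Gapdh difference reached 3.85 and the actin difference 2.33 on OXP replicate 1. The array labelled OXP replicate 2 lay closer to the STS+OXP arrays (root mean square difference 0.14 to 0.20) than to the other OXP arrays (0.25 to 0.34). This goes against its label, so counts, list medians and interaction tests of full medium are given with and without it. The fit takes its spread from all 12 arrays, so the OXP arrays also enter the standard errors of STS+OXP against STS. A gene whose starved groups do not overlap can therefore miss the threshold, as Irf7 did (log2 fold change 0.51, standard error 0.367, adjusted p = 0.399). Leaving out replicate 2 gives OXP replicate 1 more weight, so values without replicate 2 are no check on replicate 1. No interaction of a named gene or list is given without replicate 1. Of 11 intestinal epithelial markers 7 were at background in both groups, Cdh1, Vil1 and Krt19 among them, and of 8 endothelial and 9 macrophage markers 6 and 7 were. Krt20 (6.72 in STS and 6.85 in STS+OXP), Epcam (4.83 and 4.87), Cdx2 and Krt8 read above background and did not pass. Of 7 lymphocyte markers 3 were at background in both groups. Cd3e (4.29 in STS and 4.42 in STS+OXP), Cd8a (3.89 and 4.03), Cd4 and Cd79a read above it. No lymphocyte marker was called with all arrays, and 1 rose without OXP replicate 1 or 2. Of 9 fibroblast and mesenchymal markers, which tumour lines of this kind can express, Lum and Thy1 were at background in both groups, Col1a1 fell (log2 fold change -0.56), Dcn, at background in STS, was called higher, and the summed signal was 12.73 to 12.78 in STS and 12.58 to 12.66 in STS+OXP (log2), led by Vim. The number of these that fell became 2 without OXP replicate 2 and 3 without OXP replicate 1, and the part of these markers in the results was not tested. The summed signal of the macrophage markers was 7.51 to 7.62 in STS and 8.06 to 8.16 in STS+OXP (log2), and only Cd14, a receptor for bacterial lipid that tumour cells can express, rose (log2 fold change 0.72), while Csf1r, Lyz2 and Itgam stayed at background.

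In starved cells OXP raised 31 of 40 targets of p53 and lowered 38 of 40 genes of DNA replication and 44 of 46 genes of mitosis. In all, 3764 of the 17097 genes (22%) were called (limma, Benjamini-Hochberg adjusted p under 0.05), of which 1854 were higher (10.8%) and 1910 were lower (11.2%) in STS+OXP, and the counts of each list below stand against these shares. At a fold of at least 2, lower genes outnumbered higher genes, with 411 against 177. The arrays of the groups did not overlap for 3753 of the called genes, and did not overlap for 42% of all genes tested. At background in both groups were 6928 of all genes tested and 132 of the called genes, and no fold is given for these 132. The median log2 fold change of all genes was 0.04.

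**Figure D1:**
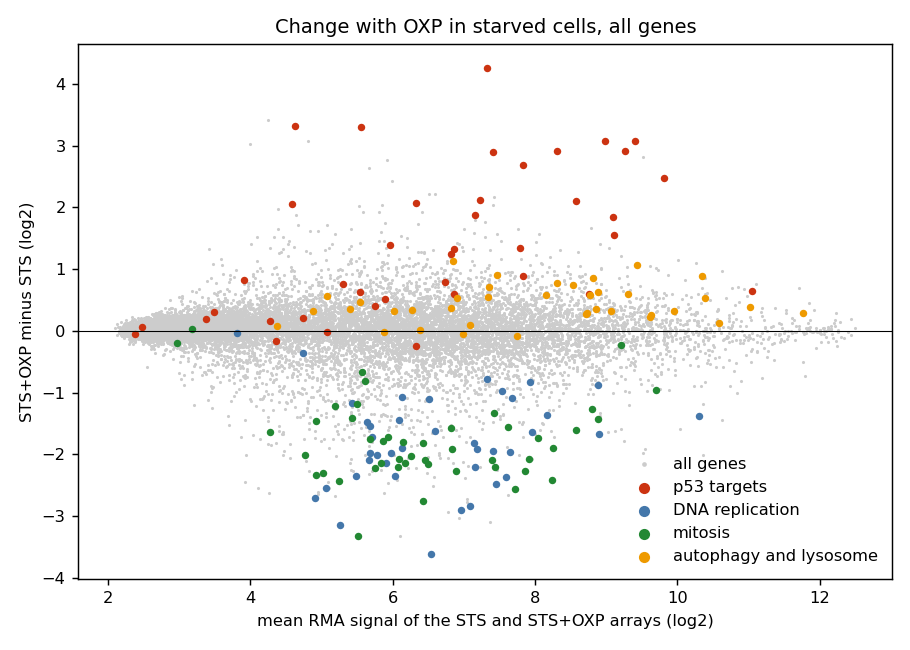
Change with OXP in starved cells against signal. Each point is 1 of 17097 genes, with the mean log2 RMA signal of the 6 arrays on the x axis and the mean of the 3 STS+OXP arrays minus that of the 3 STS arrays (log2) on the y axis. Coloured points are the members of 4 gene lists. DNA replication and mitosis genes reach down to -3.63 and p53 targets up to 4.26, while autophagy and lysosome genes lie between -0.08 and 1.13.

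Promoters of the gene groups described below hold different short elements, and 7 windows, chosen by list and motif, are shown here so that the elements can be seen beside the values that follow. Sequences are from RefSeq (GRCm38.p6) and run 5′ to 3′ from 250 bases before to 50 bases after an annotated start, 300 bases each, with the matches to the named motif in capitals on whichever strand they were found. The table has promoters for 27025 genes, and a gene was counted when any of its promoters held the motif. A match is a description of letters and not a bound site. Cdkn1a (chr17:29090729-29091028, plus strand) is shown for a match to the p53 consensus, formed by a pair of decamers separated by up to 13 bases, in 1 of its 2 windows. Such a match occurred in 1 of 31 p53 targets with a promoter and in 0.074% of all genes. Every letter of both decamers had to match, so a decamer with 1 differing letter was neither counted nor marked.
Cdkn1a: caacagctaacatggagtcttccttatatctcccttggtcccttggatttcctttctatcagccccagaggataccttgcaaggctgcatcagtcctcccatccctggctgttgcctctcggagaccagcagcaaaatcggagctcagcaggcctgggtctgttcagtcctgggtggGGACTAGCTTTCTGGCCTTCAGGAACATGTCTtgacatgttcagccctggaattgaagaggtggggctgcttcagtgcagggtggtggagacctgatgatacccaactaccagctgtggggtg
Kif11 (chr19:37376132-37376431, plus strand) and Top2a (chr11:99024140-99024439, minus strand) are the mitosis genes that fell furthest among those with both the cell cycle homology region (CHR, TTTGAA) and the CCAAT box (CCAAT), which MuvB complexes and NF-Y are known to bind. The CHR letters occurred in 28 of the 38 mitosis genes with a promoter (73.7%) against 20.2% of all genes, and the CCAAT letters in 28 of 38 (73.7%) against 41.1%. In these windows capitals mark both motifs.
Kif11: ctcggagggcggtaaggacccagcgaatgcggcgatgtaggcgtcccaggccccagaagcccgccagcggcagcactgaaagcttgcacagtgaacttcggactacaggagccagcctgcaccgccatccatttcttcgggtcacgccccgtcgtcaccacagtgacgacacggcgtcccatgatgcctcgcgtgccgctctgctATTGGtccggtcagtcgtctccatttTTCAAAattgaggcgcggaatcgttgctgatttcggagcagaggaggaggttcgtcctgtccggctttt
Top2a: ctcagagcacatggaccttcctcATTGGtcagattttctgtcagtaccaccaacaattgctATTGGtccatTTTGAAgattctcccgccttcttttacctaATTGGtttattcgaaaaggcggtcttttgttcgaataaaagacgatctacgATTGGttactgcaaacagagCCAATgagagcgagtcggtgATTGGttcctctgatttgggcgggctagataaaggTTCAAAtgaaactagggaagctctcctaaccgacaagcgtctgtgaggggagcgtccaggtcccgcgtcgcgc
Pola1 (chrX:93632106-93632405, minus strand) and Mcm5 (chr8:75109259-75109558, plus strand) are the DNA replication genes that fell furthest among those with an E2F motif (TTTGGCG or TTTCCCG), marked in capitals. It occurred in 17 of the 33 replication genes with a promoter (51.5%) against 5.55% of all genes. The CHR letters, by contrast, occurred in 6 of these 33 (18.2%), and the E2F letters in 4 of the 38 mitosis genes (10.5%).
Pola1: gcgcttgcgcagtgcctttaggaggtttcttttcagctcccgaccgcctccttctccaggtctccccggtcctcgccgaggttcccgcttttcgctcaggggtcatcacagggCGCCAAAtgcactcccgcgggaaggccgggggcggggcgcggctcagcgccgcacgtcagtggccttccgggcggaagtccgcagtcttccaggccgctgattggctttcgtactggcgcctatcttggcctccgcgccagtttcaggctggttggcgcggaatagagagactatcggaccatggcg
Mcm5: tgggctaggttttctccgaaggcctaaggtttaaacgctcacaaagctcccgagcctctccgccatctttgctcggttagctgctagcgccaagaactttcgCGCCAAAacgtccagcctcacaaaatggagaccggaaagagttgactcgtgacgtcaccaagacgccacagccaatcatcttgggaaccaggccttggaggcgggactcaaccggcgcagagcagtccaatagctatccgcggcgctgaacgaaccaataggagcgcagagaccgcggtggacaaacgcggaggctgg
Gla (chrX:134600956-134601255, minus strand), a lysosomal hydrolase, is shown for the E-box (CACGTG) that factors of the TFEB family bind. The E-box occurred in 15 of the 31 autophagy and lysosome genes with a promoter (48.4%) against 8.09% of all genes.
Gla: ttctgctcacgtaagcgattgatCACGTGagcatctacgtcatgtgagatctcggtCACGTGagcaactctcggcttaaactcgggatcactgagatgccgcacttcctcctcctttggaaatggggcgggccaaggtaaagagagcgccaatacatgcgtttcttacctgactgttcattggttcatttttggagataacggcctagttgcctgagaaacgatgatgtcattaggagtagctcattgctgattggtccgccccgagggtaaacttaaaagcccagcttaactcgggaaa
Ifit3 (chr19:34583279-34583578, plus strand), an antiviral gene, is shown for 3 matches to the core of the interferon-stimulated response element (GAAANNGAA). That core occurred in 18 of the 33 interferon-stimulated genes with a promoter (54.5%) against 9.76% of all genes.
Ifit3: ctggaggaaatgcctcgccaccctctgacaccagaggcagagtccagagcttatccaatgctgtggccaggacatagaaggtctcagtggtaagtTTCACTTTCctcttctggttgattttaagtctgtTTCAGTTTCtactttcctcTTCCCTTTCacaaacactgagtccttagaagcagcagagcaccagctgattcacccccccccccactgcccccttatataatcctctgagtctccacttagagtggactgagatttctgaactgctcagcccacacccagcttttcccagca

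p53 targets formed the list with the highest median change. Of 40 measured members 31 rose, 1 fell and 8 did not pass, with a median log2 fold change of 1.29, beside 0.04 for all genes. The list was written with earlier results of these arrays known and includes genes that rise strongly in them, so its count is not independent evidence of a direction. Cdkn1a, the inhibitor of cyclin-dependent kinases, had log2 signals of 7.81, 7.83 and 7.81 in the STS arrays and 10.67, 10.77 and 10.73 in the STS+OXP arrays (log2 fold change 2.91, standard error 0.0691, adjusted p = 1.4e-11). All 3 treated arrays lay far above the 3 untreated ones, and the groups averaged 7.81 ± 0.01 and 10.72 ± 0.05 (SD, n = 3 arrays each). Mdm2, the ubiquitin ligase that degrades p53, had signals of 6.93, 6.81 and 6.81 in the STS arrays and 9.90, 9.53 and 9.88 in the STS+OXP arrays (log2 fold change 2.92, standard error 0.0984, adjusted p = 2.59e-10). The STS+OXP arrays were again all higher, with replicate 2 the lowest of them. Dcxr, a reductase of dicarbonyls and xylulose, had the highest fold change of any named gene, 19.1-fold, with signals of 5.18, 5.16 and 5.25 in the STS arrays and 9.40, 9.57 and 9.39 in the STS+OXP arrays (log2 fold change 4.26, standard error 0.0951, adjusted p = 1.4e-11).

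Other targets that rose most were Eda2r, a death-domain receptor of the TNF receptor family (log2 fold change 3.30), Trp53inp1, a stress protein that helps p53 and autophagy (3.08), Ephx1, an epoxide hydrolase (3.08), and Ak1, an adenylate kinase (2.90). Ak1 did not pass when only specific probe sets were used. Phlda3, which restrains AKT (2.69), Ccng1, an atypical cyclin (2.48), and Zmat3, an RNA-binding protein (2.12), also rose. Cd80, a costimulatory ligand for T cells, was at background in STS, with signals of 3.16, 2.74 and 2.99 in the STS arrays and 6.28, 6.20 and 6.36 in the STS+OXP arrays, so its rise was at least 7.03-fold (fitted adjusted p = 7.19e-11). Its other, specific probe set gave a log2 fold change of -0.18 that did not pass. Targets that did not pass included Ddb2 (-0.01), a sensor of helix-distorting damage, Tigar (0.15), a brake on glycolysis, and Pmaip1, Perp and Tnfrsf10b, which were at background in both groups. Sesn1, an antioxidant and inhibitor of mTORC1, was the target called lower (log2 fold change -0.24, standard error 0.0794, adjusted p = 0.0443), and this call was lost under 9 of the alternatives, among them leaving out STS replicate 2 or 3, STS+OXP replicate 2 or 3 or CTR replicate 3.

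Among the 12 genes with the highest fitted fold changes, 4 were not on that list. Ces2e, a carboxylesterase, Anxa8, an annexin, and Hoatz, a protein of cilia and flagella, were at background in STS, and their rises were at least 5.64-fold, 7.09-fold and 4.13-fold, and the bound for Hoatz lay below the folds of Phlda3 (6.44) and Ccng1 (5.56). Anxa8 read 3.27, 2.97 and 3.56 in the STS arrays and 6.24, 6.45 and 6.33 in the STS+OXP arrays on the log2 scale. Glipr1, a secreted protein described as a p53 target in other cells, had signals of 8.04, 8.17 and 8.10 in the STS arrays and 10.91, 10.91 and 10.97 in the STS+OXP arrays (log2 fold change 2.83, standard error 0.0698, adjusted p = 1.4e-11), with no overlap and the least spread of these 4 genes in the STS+OXP arrays.

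**Figure D2:**
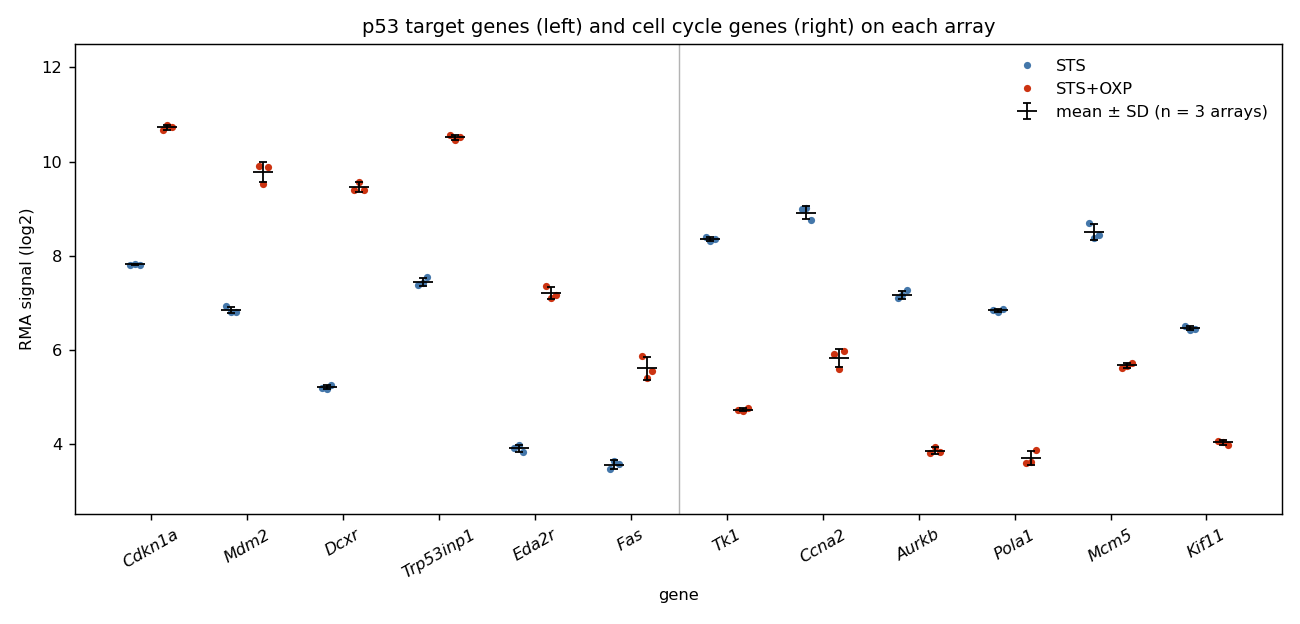
Log2 RMA signal of 12 genes on each of the 6 arrays. Points are arrays (blue STS, red STS+OXP) and black bars are the group mean ± SD (n = 3 arrays). The 6 p53 targets on the left are higher and the 6 cell cycle genes on the right lower in every STS+OXP array than in any STS array. Cdkn1a moves from 7.81 to 10.72 and Tk1 from 8.35 to 4.72.

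Genes of DNA replication fell as a group. Of 40 measured, 38 fell and none rose, with a median log2 fold change of -1.86, and only Orc1 (-0.03) and Gins3 (-0.35) did not pass. Tk1, which makes thymidine monophosphate in S phase, fell furthest of all named genes, from signals of 8.39, 8.30 and 8.36 in STS to 4.71, 4.70 and 4.76 in STS+OXP (log2 fold change -3.63, standard error 0.171, adjusted p = 5.14e-09). The groups were far apart relative to the spread within each. Pola1, the catalytic subunit of the polymerase that starts DNA strands and whose E2F motif is printed above, read 6.84, 6.80 and 6.87 in the STS arrays and 3.58, 3.62 and 3.87 in the STS+OXP arrays (log2 fold change -3.15, standard error 0.117, adjusted p = 6.87e-10). Its STS+OXP arrays were close to the background level, with replicate 3 the highest of them.

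The 6 genes of the helicase that unwinds origins, Mcm2 to Mcm7, all fell, with log2 fold changes from -2.83 for Mcm5 to -1.37 for Mcm7. Mcm5 had signals of 8.69, 8.38 and 8.43 in the STS arrays and 5.62, 5.65 and 5.72 in the STS+OXP arrays (log2 fold change -2.83, standard error 0.115, adjusted p = 1.38e-09). Uhrf1, which carries DNA methylation through replication, fell by 2.91 on the log2 scale, and Cdc6, which loads the helicase, was at background in STS+OXP, at least 6.11-fold lower than in STS. Rrm2, a subunit of ribonucleotide reductase, read 8.77, 8.57 and 8.74 in the STS arrays and 6.32, 6.05 and 6.26 in the STS+OXP arrays (log2 fold change -2.49, standard error 0.167, adjusted p = 1.32e-07), and Fen1, which trims Okazaki fragments, read 7.16, 7.11 and 7.34 in the STS arrays and 4.79, 4.999 and 4.77 in the STS+OXP arrays (log2 fold change -2.35, standard error 0.156, adjusted p = 1.21e-07). Neither gene had overlapping groups. Pcna, the sliding clamp, fell less (-1.37).

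Genes of mitosis fell in 44 of 46 measured members, with a median log2 fold change of -1.85 and none higher. The exceptions, Kif23 and Cit, were at background in both groups. Aurkb, a kinase of the chromosomal passenger complex, read 7.09, 7.17 and 7.26 in the STS arrays and 3.80, 3.93 and 3.83 in the STS+OXP arrays (log2 fold change -3.32, standard error 0.149, adjusted p = 3.14e-09). Kif11, the motor that separates spindle poles, and Top2a, which untangles sister chromatids, are the genes whose promoters are shown. Kif11 read 6.50, 6.43 and 6.44 in the STS arrays and 4.06, 4.04 and 3.97 in the STS+OXP arrays (log2 fold change -2.43, standard error 0.105, adjusted p = 2.55e-09). Top2a read 9.55, 9.38 and 9.41 in the STS arrays and 7.06, 6.999 and 7.01 in the STS+OXP arrays (log2 fold change -2.43, standard error 0.0991, adjusted p = 1.5e-09). In both genes the highest STS+OXP array lay more than 2 log2 units below the lowest STS array. Bub1, a spindle checkpoint kinase (-2.75), Birc5, the passenger protein survivin (-2.56), and Plk1, a kinase of mitotic entry (-2.23), fell as well, and Bub3 (-0.23), Kif18b (-0.66) and Dlgap5 (-0.81) fell least among those that passed.

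Cyclins and their kinases mostly fell. Of 18 measured, 13 fell and 3 rose. Ccna2, the cyclin of S phase and G2, read 8.98, 9.002 and 8.75 in the STS arrays and 5.90, 5.59 and 5.96 in the STS+OXP arrays (log2 fold change -3.10, standard error 0.12, adjusted p = 9.38e-10). Ccne2 was at background in STS+OXP and at least 5.84-fold lower, and Ccne1 (-1.89), Ccnb2 (-2.17) and Cdk1 (-1.72) fell. Those that rose were Ccng1, a p53 target, and the G1 cyclins Ccnd2 (0.73) and Ccnd1 (0.36), while the G1 cyclin Ccnd3 (-0.64) fell. Ccnd1 did not pass with the average of its probe sets. Of 8 CDK inhibitors Cdkn1a alone rose, Cdkn2a, Cdkn2b and Cdkn1c were at background in both groups, Cdkn1b (-0.12) and Cdkn2c (-0.13) did not pass, and Cdkn2d (-1.09) and Cdkn3, a phosphatase expressed in cycling cells (-1.76), fell.

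The remaining genes among the 12 that fell most were Fbxo5, which restrains the anaphase-promoting complex (-3.32), Pbk, a mitotic kinase (-3.03), Cdca5, which holds sister chromatids together as sororin (-2.94), Shcbp1, a midbody protein (-2.78), and Trip13, which remodels checkpoint proteins (-2.73). Each is a gene of proliferating cells. Of the histones measured, 5 of 17 fell and 1 rose (2 and none with specific probe sets only). The number that rose became 2 without OXP replicate 1 and 3 with array weights or the 6 arrays alone. Both H2az1 (-1.45) and H2ax (-1.64) fell, and H1f2, a linker histone, rose (1.06).

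Repair of crosslinks by the Fanconi and homologous recombination proteins fell at the mRNA level. Of 35 measured members 23 fell and 1, the nuclease subunit Mus81 (0.51), rose, and that rise was lost when any 1 of the STS or STS+OXP arrays or CTR replicate 3 was left out, or with specific probe sets only. The median log2 fold change was -0.80. Brca1 read 6.43, 6.25 and 6.29 in the STS arrays and 3.92, 3.98 and 3.70 in the STS+OXP arrays (log2 fold change -2.46, standard error 0.195, adjusted p = 6.39e-07), with the STS+OXP arrays near background. Rad51ap1 (-2.33), Chek1, the kinase that ATR activates (-2.27), Usp1, the deubiquitinase of the pathway (-2.08), and Blm, a helicase (-1.76), fell furthest beside it.

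Nucleotide excision repair and bypass of platinum adducts moved in both directions. Of 23 genes 7 rose and 3 fell (1 with specific or averaged probe sets), with a median of 0.02. Polk, a bypass polymerase and p53 target, read 5.45, 5.33 and 5.10 in the STS arrays and 7.32, 7.42 and 7.35 in the STS+OXP arrays (log2 fold change 2.07, standard error 0.0904, adjusted p = 2.79e-09). Ercc5, the nuclease that cuts 3′ of an adduct, rose by 1.93 on the log2 scale, and Xpc, which finds distorted DNA, by 0.75. Polh, the polymerase known to copy past platinum adducts, read 6.43, 6.31 and 6.39 in the STS arrays and 5.30, 5.36 and 5.13 in the STS+OXP arrays and fell (log2 fold change -1.11, standard error 0.106, adjusted p = 3.89e-06), although not with specific probe sets only. The core factors Ercc1 (0.18), Ddb1 (0.08) and Xpa (0.42) had small values, and of these Xpa alone passed.

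Apoptosis genes were divided too. Of 25 pro-apoptotic genes 7 rose and 5 fell (3 with specific probe sets only), with a median of 0.06. Fas, a death receptor, read 3.45, 3.63 and 3.57 in the STS arrays and 5.87, 5.40 and 5.55 in the STS+OXP arrays (log2 fold change 2.05, standard error 0.186, adjusted p = 2.39e-06), rising from near background. Bbc3 (PUMA), which neutralises BCL2 proteins, read 5.25, 5.28 and 5.25 in the STS arrays and 6.87, 6.45 and 6.65 in the STS+OXP arrays (log2 fold change 1.39, standard error 0.176, adjusted p = 4.93e-05), and Apaf1, the scaffold of caspase 9 activation, rose by 1.04. The 3 genes had no overlap between groups, with STS+OXP replicate 2 the lowest treated array each time. On the other side Bok (-0.95) and Casp2 (-0.73) fell. Of 14 anti-apoptotic genes 3 rose, led by Bcl2l1, which encodes BCL-xL (1.17), and 3 fell, of which Birc5 alone stayed called without STS replicate 1 or 3 or STS+OXP replicate 2 or 3.

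**Figure D3:**
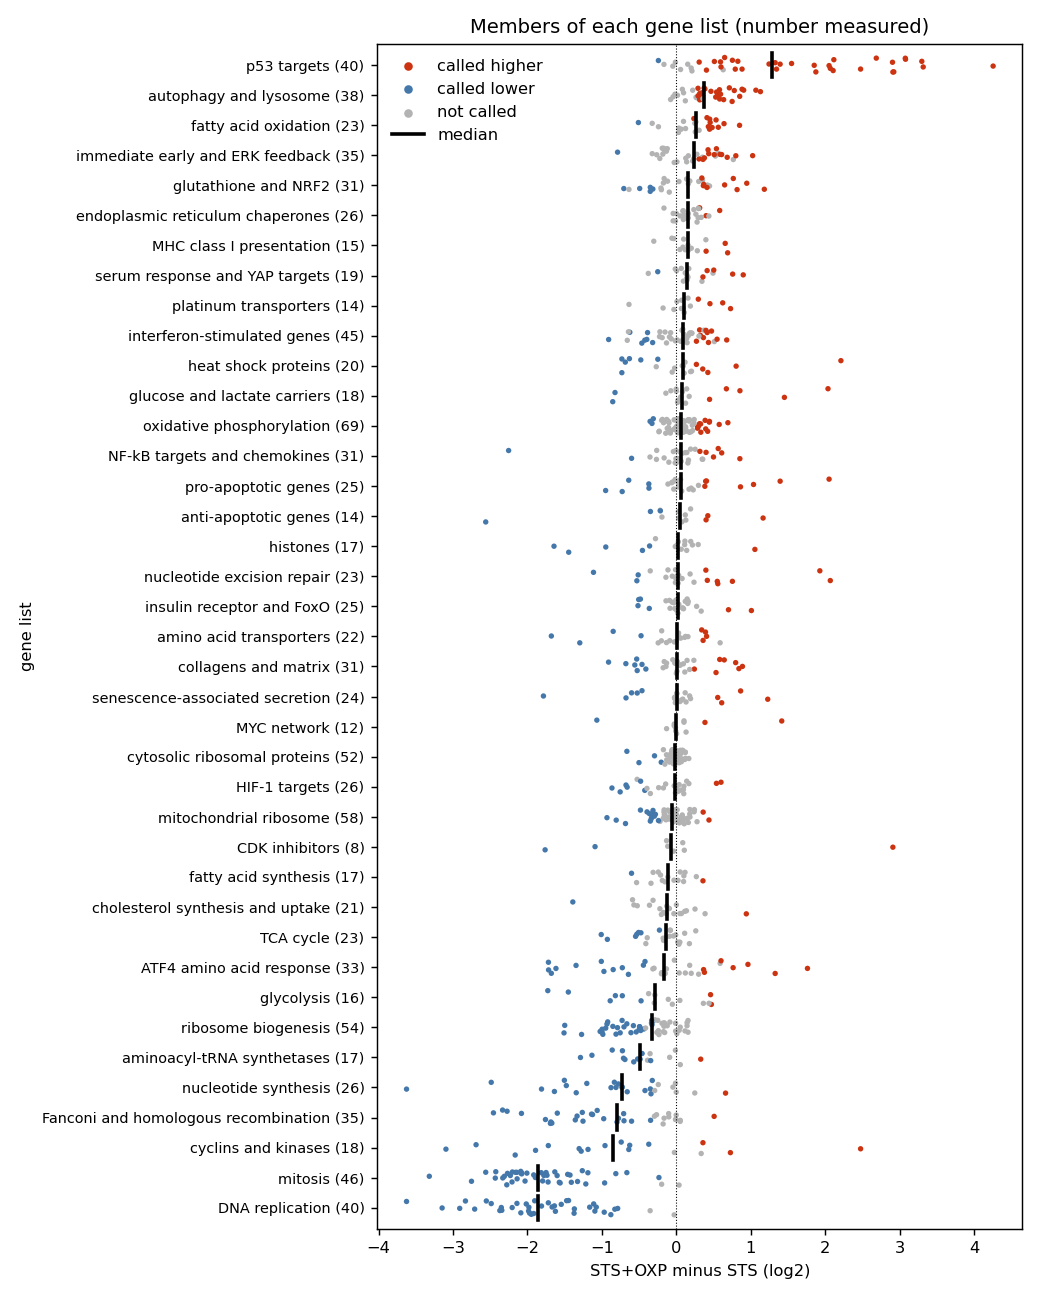
Members of 39 gene lists, ordered by median. The x axis is the mean of STS+OXP minus that of STS (log2), each point is a gene (red called higher, blue called lower, grey not called by limma at an adjusted p under 0.05), and the black bar is the median of the list, with the number of genes measured in brackets. The medians run from -1.86 for DNA replication to 1.29 for p53 targets.

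Ribosome biogenesis and nucleotide synthesis genes were more often lower than higher. Of 54 ribosome biogenesis genes 29 fell and none rose (median -0.33), led by Dkc1, the pseudouridine synthase (-1.51), Taf1d, a factor of RNA polymerase I (-1.50), and Nop16 (-1.27). Dkc1 read 8.52, 8.58 and 8.63 in the STS arrays and 7.16, 6.84 and 7.20 in the STS+OXP arrays. Nucleotide synthesis fell in 19 of 26 genes (median -0.73). Outside the genes shared with the replication list, Dck, a salvage kinase (-1.50), Dut, which removes dUTP (-1.48), and Pfas, of purine synthesis (-1.35), fell furthest, and Prps2, which makes phosphoribosyl pyrophosphate, rose (0.66). Of 17 cytosolic aminoacyl-tRNA synthetases 11 fell and 1 rose (median -0.49), among them Mars1 (-1.13) and Iars (-0.86). The ribosomal proteins themselves differed little, with 4 of 52 lower (8 with averaged probe sets), none higher and a median of -0.02. Myc, a driver of these genes, read 8.05, 8.03 and 7.92 in the STS arrays and 7.75, 7.92 and 7.93 in the STS+OXP arrays. Its groups overlapped and it did not pass (log2 fold change -0.13, adjusted p = 0.419). Of its antagonists, Mxd4 (1.42) rose and Mxd3 (-1.07) fell. Mxd1 (0.38) rose as well, a call lost with averaged probe sets or without STS replicate 1 or 2 or STS+OXP replicate 2 or 3.

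Lysosome and autophagy genes rose with the drug in starved cells. Of 38 measured 26 rose and none fell, with a median of 0.37, and 16 rose among the members with a specific probe set. The list rose more in full medium, where 30 were higher and 1 lower (median 0.71). Without OXP replicate 2, 29 were higher and none lower there (median 0.72). By the interaction test described below, 13 members rose less in starved cells (12 without OXP replicate 2). Gla, an alpha-galactosidase, had the largest rise and read 6.17, 6.42 and 6.26 in the STS arrays and 7.40, 7.45 and 7.38 in the STS+OXP arrays (log2 fold change 1.13, standard error 0.1, adjusted p = 1.88e-06). Ctsd, the protease cathepsin D, read 8.88, 8.95 and 8.85 in the STS arrays and 9.998, 9.91 and 9.97 in the STS+OXP arrays (log2 fold change 1.07, standard error 0.0797, adjusted p = 3.55e-07). Gabarap, which decorates autophagosomes (0.88), and Ctsa (0.85) rose by less than 1 log2 unit. None of these 4 genes had overlapping groups. In fatty acid oxidation 11 of 23 genes rose and 1 fell (median 0.26, and 2 to 3 fell without OXP replicate 1 or 2 or STS+OXP replicate 1), led by Slc25a20, the carnitine carrier of mitochondria (0.85), and Decr1 (0.64).

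Glycolysis, the pathway the study set out to follow, had 6 of 16 genes lower and 2 higher. The lower ones were Pfkl (-1.73), Hk2 (-1.45), Pgk1 (-0.89), Ldha (-0.82), Tpi1 (-0.73) and Gapdh (-0.47). Hk2, which traps glucose in the cell, read 7.16, 6.82 and 6.95 in the STS arrays and 5.73, 5.55 and 5.30 in the STS+OXP arrays (log2 fold change -1.45, standard error 0.119, adjusted p = 9.04e-07). Pfkl, of the committing step, was not called with specific probe sets only, under which 2 glycolysis genes fell. The 2 higher genes, Hk1 (0.46) and Pfkm (0.47), were both lost without STS replicate 3 or STS+OXP replicate 2, and Pkm (-0.29), Aldoa (-0.11) and Eno3 (-0.37) did not pass. Slc2a1, the glucose transporter GLUT1, read 8.61, 8.44 and 8.40 in the STS arrays and 8.53, 8.68 and 8.66 in the STS+OXP arrays, with overlapping groups (adjusted p = 0.395). Txnip, which holds back glucose uptake, rose (log2 fold change 2.04, standard error 0.182, adjusted p = 2.08e-06), with signals of 6.33, 6.36 and 6.47 in the STS arrays and 8.43, 8.44 and 8.41 in the STS+OXP arrays. By the interaction test described below, 1 of the 16 glycolysis genes, Hk2, differed between media with all arrays, and 3 did without OXP replicate 2. Hk2 fell further in full medium (-2.22, interaction adjusted p = 0.0124, and 0.019 without that array). Txnip rose more there (4.29, interaction adjusted p = 0.000101, and 1.16e-05). Slc2a1, not called in starved cells, fell there (-0.60, interaction adjusted p = 0.00517, and 0.00443). In the tricarboxylic acid cycle 7 of 23 genes fell, Idh2 furthest (-1.01), which became 2, without Idh2, with specific probe sets only. Of 69 oxidative phosphorylation genes 13 rose and 3 fell, with a median of 0.07. The 13 became 6 with specific probe sets only, 7 without STS replicate 3, 8 without STS+OXP replicate 3 and 20 with array weights, and the 3 became 5 without OXP replicate 1 and 7 with array weights.

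The same drug contrast in full medium, OXP against CTR, called 2995 genes higher (17.5%) and 2382 lower (13.9%), and 3047 and 2232 without OXP replicate 2. Of the 3764 genes called in starved cells, 2893 were called there too, 2806 of them in the same direction and 87 in the opposite one, and without that array 2842 were, 2761 in the same direction and 81 in the opposite one. Whether a response differs between media was tested by the interaction, the change in starved cells minus that in full medium. It was called for 1417 genes (8.29%), and for 1756 (10.3%) without OXP replicate 2, with 1296 genes called both ways. Among the 3764 genes, 690 had an interaction, of which 375 changed less and 125 more in starved cells in the same direction, and 190 had opposite signs. Without OXP replicate 2 there were 849, of which 475 changed less, 180 changed more and 194 had opposite signs.

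p53 targets rose and mitosis genes fell in both media. The median of the p53 list was 1.29 in starved cells and 1.01 in full medium (0.97 without OXP replicate 2), and 10 of 40 had an interaction (12 without OXP replicate 2). Cdkn1a changed by 2.91 and 2.95, an interaction of -0.04 with a standard error of 0.0977 (adjusted p = 0.861, and 0.661 without OXP replicate 2). Trp53inp1 rose less in starved cells than in full medium, by 3.08 against 4.18 (adjusted p = 3.54e-05, and 5.91e-05 without OXP replicate 2), whereas Plk2, a stress kinase, rose more, by 1.85 against 0.94 (adjusted p = 0.00111, and 0.000429 without OXP replicate 2). Bbc3 changed by 1.39, against 0.47 in full medium, which did not pass and was 0.24 without OXP replicate 2 (interaction adjusted p = 0.0364, and 0.00152 without OXP replicate 2). Of the 46 mitosis genes 1, Hmmr, had an interaction with all arrays, and 10 had one without OXP replicate 2, 8 of them with the smaller fall in starved cells.

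By the interaction, 14 of 40 DNA replication genes fell further in starved cells, and without OXP replicate 2 it was 19 of the 20 with an interaction. The list medians were -1.86 and -1.36 (-1.27 without OXP replicate 2). Rrm2 changed by -2.49 against -1.38 in full medium (interaction adjusted p = 0.0104), and by -1.15 there without OXP replicate 2 (adjusted p = 0.000127). Fen1 changed by -2.35 against -1.53 (adjusted p = 0.0348). Its signals were 6.70, 7.27 and 6.95 in CTR and 5.80, 5.32 and 5.22 in OXP, so every STS+OXP array, at 4.79, 4.999 and 4.77, lay below every OXP array. For Fen1, and for Rrm2 with OXP signals of 7.45, 6.56 and 7.07, the highest OXP array was replicate 1. That array had the large 3′ to 5′ differences, and its part in these interactions was not tested. Pola1 (-3.15 against -2.44, adjusted p = 0.0183) and Uhrf1 (-2.91 against -2.07, adjusted p = 0.0262) also fell further in starved cells, and without OXP replicate 2 the interactions of Fen1, Pola1 and Uhrf1 had adjusted p = 0.0279, 0.000828 and 0.00263.

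**Figure D4:**
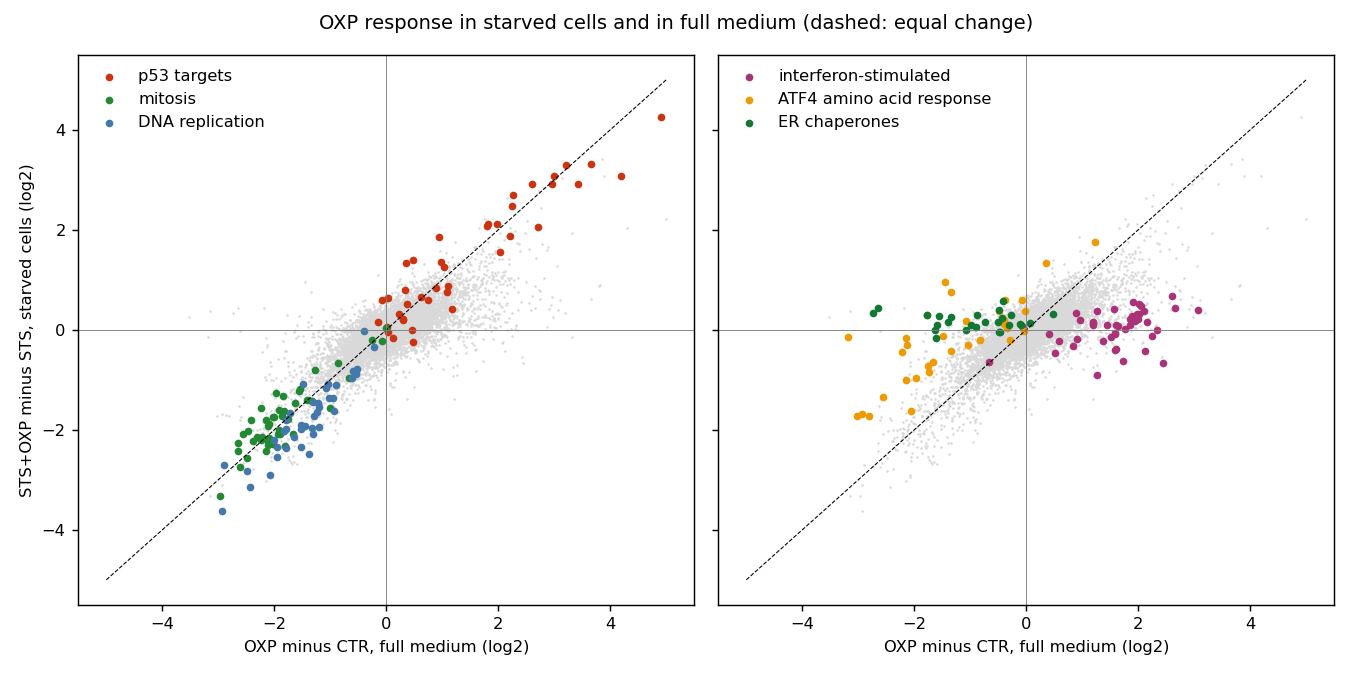
Change with OXP in starved cells (y axis, STS+OXP minus STS, log2) against the change in full medium (x axis, OXP minus CTR, log2). Grey points are all genes, coloured points are list members and the dashed line marks equal change. p53, mitosis and replication genes (left) mostly moved the same way in both media, with replication medians of -1.86 starved and -1.36 in full medium, whereas interferon-stimulated genes (right) spread along the x axis around a starved median of 0.10 and a full-medium median of 1.60.

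Interferon-stimulated genes, which encode antiviral effectors, rose with OXP in full medium in nearly every member, and moved in both directions in starved cells. Of 45 measured, 43 were called higher in full medium (median 1.60, with the same count and median without OXP replicate 2), and in starved cells 10 were higher and 7 lower (median 0.10). The interaction was called for 41 of 45, and for 42 without OXP replicate 2. Ifit1, which binds foreign RNA, read 9.04, 9.14 and 9.08 in CTR, 11.15, 11.15 and 11.11 in OXP, 10.64, 10.65 and 10.60 in STS and 11.09, 11.08 and 11.14 in STS+OXP. The STS arrays were already well above CTR and the arrays of both drug groups were highest, and the change with the drug was 0.47 in starved cells and 2.05 in full medium (interaction adjusted p = 3.26e-07, and 4.62e-07 without OXP replicate 2). Gbp2, an interferon-inducible GTPase, changed by 0.40 against 3.06 (adjusted p = 3.26e-07, and 3.82e-08 without OXP replicate 2). Its change in starved cells was not called with specific probe sets only.

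Ifit3, whose 3 matches to the core of the response element are printed above, had the largest rise of the list in starved cells, from 10.62, 10.62 and 10.58 to 11.28, 11.24 and 11.33 (log2 fold change 0.68, standard error 0.0825, adjusted p = 3.71e-05). Herc6, a ubiquitin ligase of the family, fell (log2 fold change -0.91, standard error 0.114, adjusted p = 4.68e-05) and rose in full medium (1.26). The 7 lower members became 3 without STS replicate 2, STS replicate 3 or STS+OXP replicate 2, and 2 without STS+OXP replicate 3. Over all settings run, 7 to 15 members of the interferon list were higher and 2 to 10 lower in starved cells. MHC class I presentation showed the same contrast, with 3 of 15 higher and none lower in starved cells, 11 higher in full medium with or without OXP replicate 2, and an interaction for 12 both with all arrays and without OXP replicate 2. The 3 became 5 with the 6 arrays alone and 1 with specific probe sets only, and 1 was lower without OXP replicate 2. H2-T23, a nonclassical class I molecule, read 9.24, 9.31 and 9.40 in STS and 9.91, 10.11 and 9.90 in STS+OXP (log2 fold change 0.66, standard error 0.145, adjusted p = 0.0044), and 6.39, 6.85 and 6.84 in CTR and 9.51, 9.99 and 9.47 in OXP.

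Endoplasmic reticulum chaperones fell with OXP in full medium, and none was called lower in starved cells. Of 26 measured, 21 were lower in full medium (median -0.81, and 22 with a median of -0.92 without OXP replicate 2), whereas in starved cells 3 were higher (median 0.16), with an interaction for 21 whether or not OXP replicate 2 was used. The 3 became 8 without OXP replicate 2, 5 without OXP replicate 3 and 11 with the 6 arrays of the comparison alone. Hspa5, the main chaperone BiP, read 12.02, 11.93 and 12.001 in CTR and 10.30, 11.11 and 10.37 in OXP, where replicate 2 was the highest, and 10.76, 10.81 and 10.89 in STS and 11.13, 10.85 and 10.97 in STS+OXP. The starved groups overlapped (adjusted p = 0.576), and the interaction had an adjusted p of 0.000851, and 1.02e-06 without OXP replicate 2. Dnajb9, a cochaperone of BiP, rose in starved cells (log2 fold change 0.58, standard error 0.0963, adjusted p = 0.00051).

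**Figure D5:**
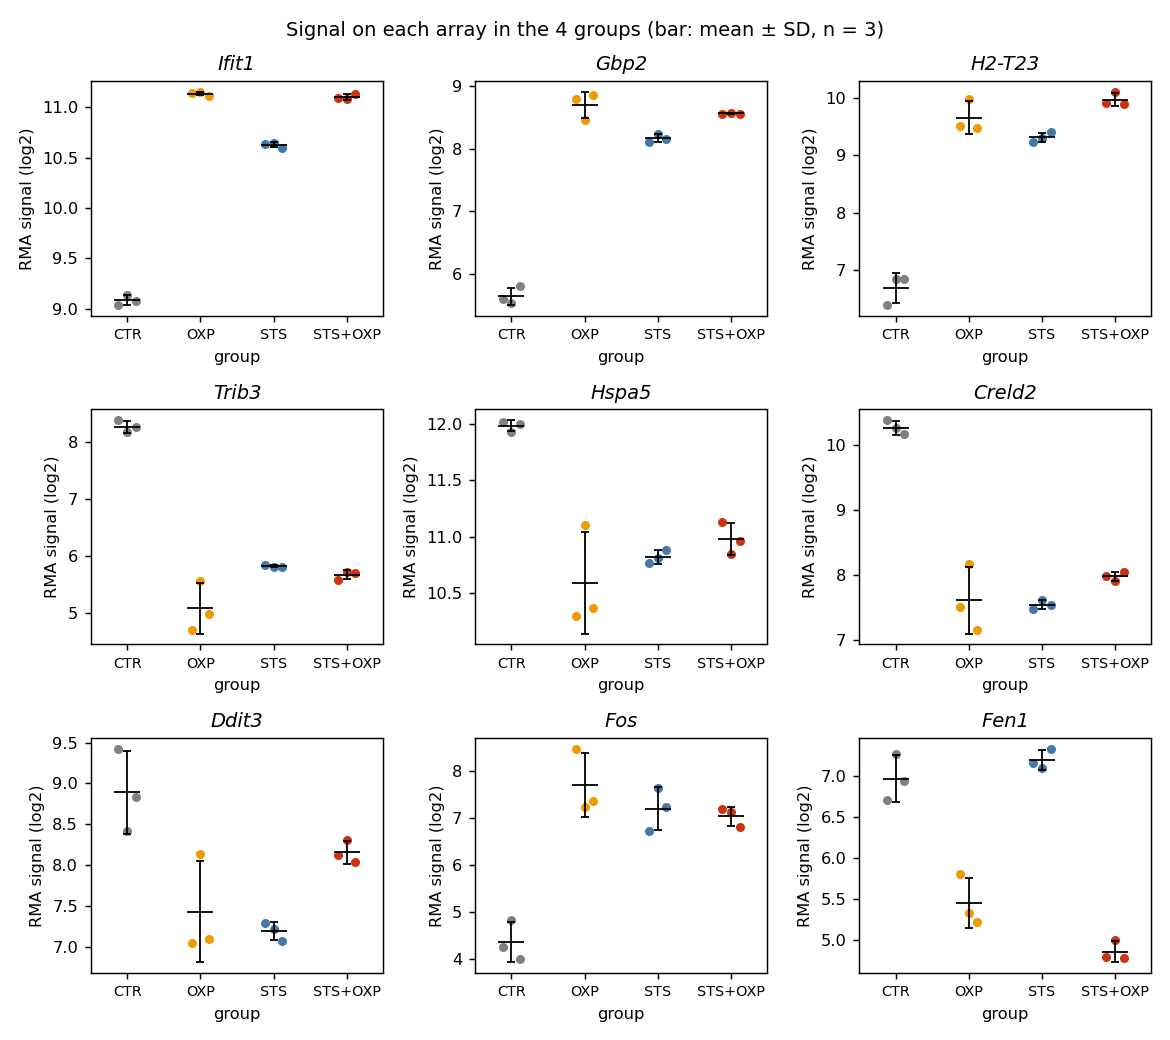
Log2 RMA signal of 9 genes on all 12 arrays, by group. Points are arrays and black bars the group mean ± SD (n = 3 arrays), and each panel has its own y axis, which does not start at 0. Ifit1, Gbp2 and H2-T23 are higher in STS than in CTR before any drug and Trib3, Hspa5 and Creld2 are lower, while Fen1 starts near 6.97 in CTR and 7.20 in STS and ends lowest in STS+OXP at 4.85.

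The ATF4 amino acid response separated into parts. Of 33 measured, 12 fell and 7 rose in starved cells (median -0.17), and 26 were lower in full medium (median -1.46, and 27 with a median of -1.76 without OXP replicate 2), with an interaction for 27 (28 without OXP replicate 2). The enzymes and carriers that fell were led by Pck2 (-1.72), Shmt2, of mitochondrial one-carbon metabolism (-1.72), Slc7a5, the leucine carrier (-1.68), and Psat1, of serine synthesis (-1.62). Psat1 read 9.92, 9.94 and 9.95 in the STS arrays and 8.33, 8.36 and 8.27 in the STS+OXP arrays. Each of these 4 fell further in full medium, where Slc7a5 changed by -2.94 (interaction adjusted p = 0.0112, and 6.41e-05 without OXP replicate 2). Vldlr, a lipoprotein receptor (1.76), and Sesn2, an inhibitor of mTORC1 and also a p53 target (1.33), rose.

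The stress regulators of the list changed differently in the 2 media. Ddit3 (CHOP), a factor that promotes death under stress, read 7.29, 7.23 and 7.07 in the STS arrays and 8.12, 8.31 and 8.04 in the STS+OXP arrays (log2 fold change 0.96, standard error 0.268, adjusted p = 0.0187), and changed by -1.46 in full medium (-1.81 without OXP replicate 2), with interaction adjusted p = 0.00128, and 2.79e-05 without that array. Its call in starved cells was lost without STS replicate 2, STS replicate 3 or STS+OXP replicate 2. Ppp1r15a (GADD34), which restores translation, changed by 0.76 and -1.34 (interaction adjusted p = 0.00144, and 6.24e-05 without OXP replicate 2), and its call in starved cells was lost without any 1 of the 6 arrays compared. Trib3, which inhibits ATF4 and CHOP, read 5.84, 5.82 and 5.81 in STS and 5.59, 5.72 and 5.71 in STS+OXP, a change of -0.15 that did not pass, against -3.19 in full medium (interaction adjusted p = 2.15e-06, and 3.82e-08 without OXP replicate 2). Its CTR arrays, at 8.38, 8.17 and 8.26, were the highest, and the OXP arrays read 4.70, 5.56 and 4.98, so the 3 STS arrays lay between the CTR and the OXP arrays.

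Immediate early and ERK feedback genes rose in 12 of 35 and fell in 1 (median 0.23, against 0.79 in full medium and 0.72 there without OXP replicate 2), with an interaction for 15 (16 without OXP replicate 2). Dusp1, a phosphatase of MAP kinases, rose from 9.27, 9.35 and 8.94 to 10.14, 10.33 and 10.16 (log2 fold change 1.03, standard error 0.154, adjusted p = 0.000229). Fos read 6.71, 7.63 and 7.23 in the STS arrays and 7.18, 7.12 and 6.80 in the STS+OXP arrays, with overlapping groups and more spread in STS than in STS+OXP (adjusted p = 0.797). It changed by 3.32 in full medium (interaction adjusted p = 0.000212, and 0.000101 without OXP replicate 2), where the OXP arrays were spread as well, at 8.47, 7.24 and 7.35. Maff, a small MAF factor (0.80), rose, and Etv5 (-0.79) fell.

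Some single genes stood out in the remaining lists. Cxcl10, a chemokine for T cells, read 8.49, 8.60 and 8.67 in the STS arrays and 6.19, 6.51 and 6.30 in the STS+OXP arrays (log2 fold change -2.25, standard error 0.147, adjusted p = 1.04e-07), and fell less in full medium (-0.96, interaction adjusted p = 0.00154, and 2.14e-05 without OXP replicate 2). Cryab, a small heat shock protein, rose from 5.40, 5.52 and 5.54 in STS to 7.71, 7.73 and 7.64 in STS+OXP (log2 fold change 2.21, standard error 0.11, adjusted p = 7.73e-09), and was at background in CTR. Hmgcs1, of cholesterol synthesis, read 5.65, 5.42 and 5.50 in the STS arrays and 4.19, 4.14 and 4.08 in the STS+OXP arrays (log2 fold change -1.39, standard error 0.286, adjusted p = 0.0027), and 1 of 21 cholesterol genes fell and 1 rose, Abcg1, a cholesterol exporter (0.94). The number that fell became 3 to 4 when any 1 OXP array was left out, and 6 with the 6 arrays of the comparison alone. Of 14 genes listed for drug efflux or for the handling of platinum or copper 4 rose and none fell, with Abcb1b, a drug efflux pump (0.73), highest. Abcc4, another efflux pump, had a log2 fold change of -0.64 with no overlap between groups and did not pass (adjusted p = 0.0686), and 1 gene of the list fell without OXP replicate 1 or 2. Ccs, the copper chaperone of superoxide dismutase, rose by 0.62, while the copper importer Slc31a1 (-0.18) did not pass.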

How the data were processed

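RNA of CT26 cells was hybridised to 12 Affymetrix arrays, 3 in each of 4 groups that were read from the sample labels. The values deposited by the authors are log2 signals from RMA, which corrects background, quantile normalises and summarises the probes of each set, and the submitters' processing notes name R 3.02. Depth has no meaning for arrays, and their number, 3 a group, limits the precision. Of 45141 probe sets, 104 were controls, 28898 had 1 gene symbol in the platform annotation, 551 had several and 15588 had none. Each gene was represented by the single-symbol probe set whose mean signal was highest, giving 17097 genes. Means of 4 groups were fitted with limma 3.58.1 in R 4.3.3 on all 12 arrays (8 residual degrees of freedom, prior degrees of freedom 5.05), with two-sided tests and Benjamini-Hochberg adjustment over all genes, and the steps were tested on simulated data. The interaction was the change in starved cells minus that in full medium.

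The comparison, 39 gene lists and 5 marker lists were chosen with earlier results of these data known, and 1082 of 1203 listed symbols were measured. Named genes were the 12 that rose and the 12 that fell most by fitted log2 fold change, which for a gene at background is no order of its bounds, among called genes whose groups did not overlap, up to 5 called members of each list by size of change, genes the study itself names, up to 8 genes with the smallest interaction p with and without OXP replicate 2, and list members that did not pass. Other genes, among them Ccnd2, Ccnd3, Cdk1, Ddit3, Dut, Fen1, Fos, Gapdh, Hk1, Mcm7, Mus81, Pcna, Pfas, Pfkm, Phlda3, Plk1, Plk2, Ppp1r15a, Prps2, Sesn1, Sesn2, Bub3, Kif18b, Dlgap5, Casp2, Xpa and Zmat3, were chosen after their values were seen. A gene at background in 1 group was given a bound, the mean of the higher group against the mean of, per array, the higher of the background level and the gene's own signal. The negative control set of the highest GC content, which lay far above the others, was left out of the background level. Specific probe sets are those whose ID marks no cross-hybridisation. The main fit did not pair arrays by replicate number. Deviations of same-numbered STS and STS+OXP arrays correlated at -0.064, 0.008 and 0.050, which cannot show whether those arrays were handled together.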

Additional observations from a re-analysis of the deposited data

Results flagged for a closer look

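The response to OXP differed between starved and full medium by an interaction test for 1417 genes. By list the test was passed by 41 of 45 interferon-stimulated genes, 12 of 15 genes of MHC class I presentation, 27 of 33 genes of the ATF4 response, 21 of 26 endoplasmic reticulum chaperones and 9 of 17 aminoacyl-tRNA synthetases. Without OXP replicate 2 the numbers were 1756 genes in all and 42, 12, 28, 21 and 10 by list. Values below are the change in starved cells minus that in full medium (log2), and without that array each kept its sign and passed, with values of -0.56 for Mdm2 to -1.10 for Trp53inp1 among the 7 p53 and proliferation genes, -1.57 for Ifit1 to -2.89 for Gbp2b among the interferon-inducible genes, and 3.28 for Trib3 to 3.87 for Stbd1 among those above 0.

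Among p53 targets the rise was smaller in starved cells for Trp53inp1 (-1.11), Dcxr (-0.65) and Mdm2 (-0.50). Among genes of proliferation the fall was larger in starved cells for Pbk (-0.89), Cdca5 (-0.87), Uhrf1 (-0.84) and Pola1 (-0.71).

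Interferon-inducible genes had a smaller change in starved cells, with Gbp2b at -2.71, Gbp2 at -2.66, Gbp3 at -2.35, Tlr3, a sensor of double-stranded RNA, at -2.33, Lgals9, a galectin, at -2.16 and Ifit1 at -1.58. Gbp3 read 7.28, 7.47 and 7.37 in CTR, 9.65, 9.93 and 9.54 in OXP, 9.76, 9.86 and 9.85 in STS and 9.89, 9.75 and 9.78 in STS+OXP. Its CTR arrays lay apart from all others, and the other 3 groups were close together. Cryab had a fitted value of -2.78 (-2.83 without OXP replicate 2), with its CTR arrays at background, so its rise in full medium has only a bound, at least 19.5-fold, beside a log2 fold change of 2.21 in starved cells. Pnp2, a purine nucleoside phosphorylase, was at -1.93. It fell in starved cells (-0.74) and rose in full medium (1.19).

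Genes of the stress response had interactions above 0, with Creld2 and Sdf2l1, proteins of the endoplasmic reticulum, both at 3.08 and Trib3 at 3.04. Creld2 read 10.37, 10.25 and 10.16 in CTR, 7.51, 8.17 and 7.16 in OXP, 7.47, 7.61 and 7.54 in STS and 7.98, 7.91 and 8.04 in STS+OXP, so that its CTR arrays stood alone. Stbd1, which tethers glycogen to membranes, was at 3.78 and Car6, a secreted carbonic anhydrase, at 3.53. In both genes only the CTR arrays were high. Stbd1 read 3.60, 3.77 and 3.57 in the STS arrays, just above their background levels of 3.46, 3.52 and 3.42. A further fall of Stbd1 with the drug in starved cells could thus hardly be measured. Car6 was at background in the other 3 groups, so its fitted value is no measured difference, and only its fall in full medium, at least 6.85-fold, has a bound.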

How the results depend on the processing

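With 3764 genes called between STS+OXP and STS, the other settings except a size threshold and Welch's test gave 2967 (specific probe sets) to 5368 (array weights), and leaving out an array gave 2927 to 4526. The replicate number as a block gave 3661, and 1250 for the interaction. It moved no total by over 1.5 times, and not every array correlated best with its own number. A log2 fold change of at least 1 left 588 genes, 1185 between OXP and CTR and 362 for the interaction. The methods' Welch test called 5060 genes at their unadjusted threshold and 2169 after Benjamini-Hochberg (1057 higher, 1112 lower). The interaction ranged from 955 to 1756 over left-out arrays. Among 210 called named genes 168 kept direction and call in every setting run. With specific probe sets 3 reversed, Cd80 (-0.18), H2-D1 (-0.026) and Acot2 (-0.062), since another probe set stands for the gene. Over all genes named and settings, a call was lost in 140 cases and direction and call were as before in 4700. Endoplasmic reticulum chaperones had 1 lower gene with averaged probe sets. Median centring moved the median of all genes from 0.04 to -0.0007. Arrays give a signal over background, and 6928 genes were at background in both groups, 132 of them called, for which neither level nor fold is measured. Dose, timing and whether arrays are separate cultures were not settled, RNA integrity moved with the drug, and its part was not tested.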

Other observations

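Redox and drug-handling genes that the text above did not cover moved in both directions. Of 31 glutathione and NRF2 genes 10 rose and 5 fell, with a median log2 fold change of 0.16. Gsta4, a glutathione transferase that clears lipid aldehydes, read 4.84, 5.02 and 4.94 in the STS arrays and 6.05, 6.12 and 6.19 in the STS+OXP arrays (log2 fold change 1.18, standard error 0.121, adjusted p = 7.6e-06). Its groups did not overlap. Gstm1 rose by 0.95 and Gss, the last enzyme of glutathione synthesis, by 0.77, and Gsr, which regenerates glutathione, fell by 0.71 on the log2 scale. Among 18 glucose and lactate carriers and their regulators 5 rose and 2 fell, and Slc2a9, a urate and hexose carrier, rose by 1.45 beside Txnip, while Slc16a1, which exports lactate as MCT1, fell by 0.85 on the log2 scale. Of 22 amino acid transporters 4 fell and 4 rose, and those that fell furthest were Slc7a5 and Slc1a5, the glutamine carrier (-1.30), while the number that rose became 2 without STS replicate 2 or STS+OXP replicate 2. Akt1, a kinase of growth factor signalling, read 7.29, 7.15 and 7.18 in the STS arrays and 6.68, 6.78 and 6.71 in the STS+OXP arrays (log2 fold change -0.48, standard error 0.0682, adjusted p = 0.000136).

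Matrix and secreted genes moved in both directions. Of 31 collagens and matrix genes 7 rose and 7 fell. Thbs2, a matricellular protein (0.89), and the metalloproteinases Mmp14 (0.84) and Mmp2 (0.80) rose, and Tnc, tenascin C (-0.91), and Col4a1, of basement membranes (-0.68), fell. Among 24 genes of senescence-associated secretion 4 rose and 5 fell (3 without STS replicate 3 or STS+OXP replicate 3). Hmgb2, a chromatin protein lost in senescent cells, fell furthest, from 10.06, 10.18 and 10.19 in STS to 8.62, 8.30 and 8.16 in STS+OXP (log2 fold change -1.79, standard error 0.16, adjusted p = 2.11e-06), and Igfbp6, which binds insulin-like growth factors, rose by 1.23. Of 20 heat shock genes 5 rose, which became 3 without any 1 of the 6 arrays compared or with specific probe sets only, and 6 fell, and Ahsa1 (-0.73) and Hsp90aa1 (-0.73), both of the HSP90 machinery, fell. In the mitochondrial ribosome 13 of 58 genes fell and 2 rose. The 13 became 7 to 8 without any 1 of the STS arrays, and the 2 became 0 without STS replicate 3 or STS+OXP replicate 2, 1 without STS replicate 1 or STS+OXP replicate 3 and 5 without OXP replicate 1. Of 26 HIF-1 targets 2 rose and 6 fell, of which 3 fell without STS replicate 1 or STS+OXP replicate 2 or 3. Of 25 genes of insulin receptor and FoxO signalling 2 rose and 4 fell (2 without STS replicate 3). Of 31 NF-kB targets and chemokines 6 rose and 2 fell, and 1 fell without CTR replicate 3 or any 1 of the 6 arrays compared. The 19 serum response and YAP targets had 5 higher members and 1 lower, and the lower one was lost without STS replicate 1 or 3 or STS+OXP replicate 1 or 3, while 2 were lower without OXP replicate 1. The 17 fatty acid synthesis genes had 1 higher and 1 lower member, and 3 were lower without OXP replicate 2, 2 were lower without STS+OXP replicate 2 and 2 were higher without OXP replicate 1.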
